A study of Mus musculus with 11 samples.

Results

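Whole kidneys of Col4a3 knockout mice treated with antimiR-21 were compared with kidneys of heterozygous mice, to describe which transcripts still differed from the unaffected genotype under treatment. The comparison takes the 4 libraries labelled Col4a3 KO AntimiR-21 and the 3 labelled Col4a3 HET, 7 of the 11 libraries of the series. All mice were of strain 129X1/SvJ and 5.5 weeks old. The heterozygous mice (Col4a3+/-) received PBS (HET PBS, n = 3) and the treated knockouts (Col4a3-/-) received antimiR-21 (KO antimiR-21, n = 4). Knockouts given PBS (KO PBS, n = 4) are set beside them where a level is described. The labels give no wild-type group and no heterozygous group given antimiR-21, so genotype and treatment differ together in the main comparison. Nothing in the labels says that replicates came from separate animals, so p-values measure the spread between these samples.

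Col4a3 encodes a chain of the type IV collagen network of the glomerular basement membrane, and its loss causes Alport syndrome, in which glomerular damage is followed by tubular injury, macrophage infiltration and interstitial fibrosis. MicroRNA miR-21 is abundant in injured kidney, and antimiR-21 is an oligonucleotide that binds it and blocks its action. A microRNA pairs with its targets mainly through its seed, the bases shown in capitals in the sequence that antimiR-21 is directed against. The gene of the mouse form lies at chr11:86584120-86584141 for the mature strand (RefSeq, GRCm38.p6, minus strand).
mmu-miR-21a-5p: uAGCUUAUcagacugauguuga

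The deposited totals lay between 22.4 and 49.7 M counts, and between 17.9 and 39.7 M once names with identical counts in every library had been joined into 1 locus, written with a slash. Levels are counts scaled to library size (CPM), and differences are log2 differences from an edgeR fit over all 11 libraries. Their standard error (SE) was derived from the test, as the size of the log2 difference divided by the square root of the F statistic. Kidney markers were present in every library, among them Umod of the thick ascending limb (3798 to 6507 CPM) and Lrp2 of the proximal tubule (2440 to 3799 CPM). Reads of Y-linked genes were found in replicates 2 and 3 of HET PBS, replicates 3 and 4 of KO PBS and replicate 4 of KO antimiR-21, and the first principal component, with 47.0% of the variance, followed them. The fit therefore carries Y-linked status as a term. The libraries without Y-linked reads include HET PBS replicate 1 alone of its group. Markers of fat cells stood out in 3 libraries: Plin1, which coats lipid droplets, was at 4.15 and 1.77 CPM in KO antimiR-21 replicates 1 and 2 and at 2.13 CPM in KO PBS replicate 4, against 0 to 0.275 CPM elsewhere.

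Of 14380 loci tested, 2 were higher and 0 were lower in KO antimiR-21 than in HET PBS at an adjusted p under 0.05 (edgeR quasi-likelihood test, Benjamini-Hochberg), which is 0.0139% and 0%. Both called loci, Fcrls and Npy6r, were higher in KO antimiR-21 than in HET PBS. Both also passed in KO PBS against HET PBS (edgeR adjusted p = 0.0432 for Fcrls and 0.0216 for Npy6r). At an unadjusted p under 0.05 there were 541 higher loci (3.76%) and 368 lower loci (2.56%). At an unadjusted p under 0.01 there were 169 higher (1.18%) and 80 lower (0.556%), and 86 of the higher (0.598%) and 20 of the lower (0.139%) also differed by at least 2-fold. Ranges of the KO antimiR-21 and HET PBS libraries did not overlap for 558 loci that were higher (3.88%) and 302 that were lower (2.1%). The count of calls depended on the tool and on single libraries. With the same design, 65 higher and 24 lower loci passed by DESeq2 and 1 higher and 0 lower by limma-voom. Called higher loci numbered 0 without HET PBS replicate 1, 12 without KO PBS replicate 1, 4 without KO antimiR-21 replicate 3 and 3 without KO PBS replicate 4, and 1 without each of the others.

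**Figure D1:**
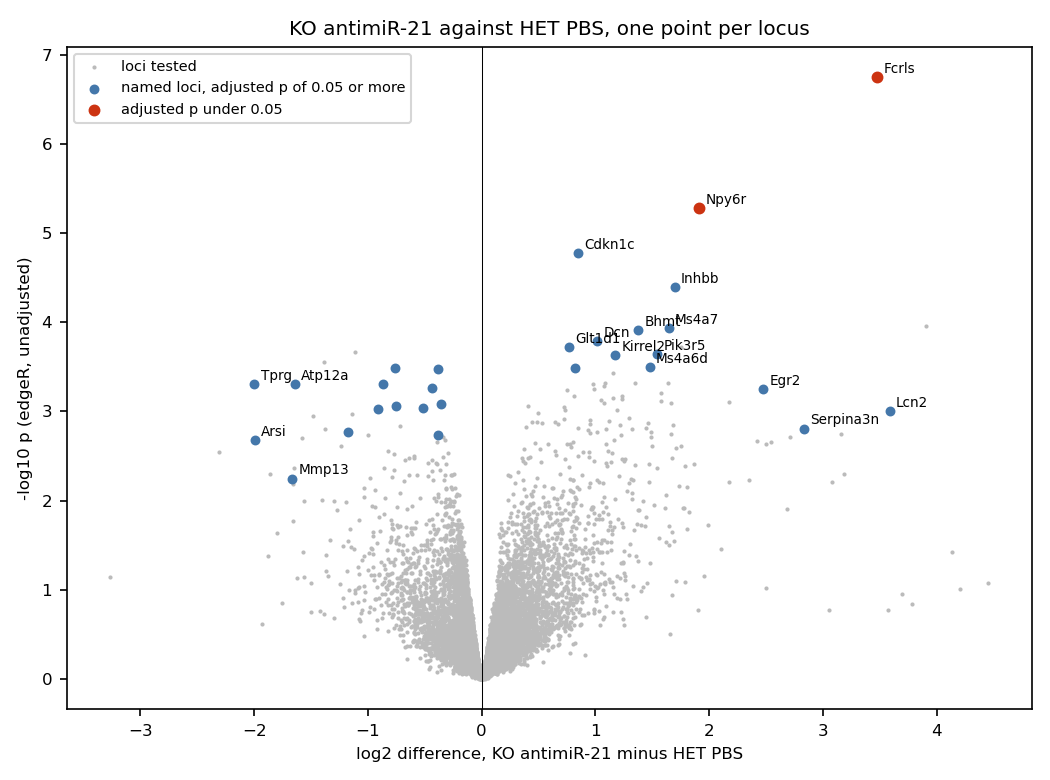
Each point is a locus, with the log2 difference of KO antimiR-21 minus HET PBS on the x axis and -log10 of the unadjusted edgeR p on the y axis. Red points are the 2 loci past the adjusted threshold, Fcrls and Npy6r, and blue points are the loci with the smallest p or the largest difference in each direction, none of which passed.

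Fcrls, an Fc receptor-like gene of microglia and related macrophages, gave the smallest p. The HET PBS levels were 0.343, 0.384 and 0.267 CPM, and the KO antimiR-21 levels 5.14, 6.41, 4.81 and 3.21 CPM, without overlap. This is a log2 difference of 3.48 (SE 0.336) with an edgeR adjusted p of 0.00256. The gene lies on chromosome 3 from 87250758 to 87263738 (GENCODE vM21, GRCm38). In KO PBS it stood at 3.30, 2.10, 1.76 and 1.01 CPM, above every HET PBS library and overlapping the treated range only through replicate 1. The direct difference between KO antimiR-21 and KO PBS was 1.10 (SE 0.244), with an adjusted p of 0.149. Within libraries without Y-linked reads the log2 difference from HET PBS was 3.97 (SE 0.537) and within those with them 3.24 (SE 0.458). Without HET PBS replicate 1 the adjusted p became 0.0964.

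Npy6r encodes a receptor of the neuropeptide Y family. Its levels were 1.12, 1.43 and 1.11 CPM in HET PBS and 3.94, 3.87, 5.55 and 3.96 CPM in KO antimiR-21. All 4 treated libraries stood above all HET PBS libraries. The log2 difference was 1.92 (SE 0.253, edgeR adjusted p = 0.0380). KO PBS covered the same range, at 4.41, 3.41, 4.85 and 6.13 CPM, and the direct difference from KO PBS was -0.05 (SE 0.208). Within libraries without and with Y-linked reads the differences from HET PBS were 1.99 (SE 0.377) and 1.62 (SE 0.344). The call was lost without the Y-linked term (adjusted p = 0.0722), by limma-voom (0.0876), without the 3 libraries with fat cell markers (0.288) and without any of 8 single libraries.

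The next loci by p did not pass the threshold, and their values are given as a description of what stood above HET PBS. Since they were chosen for a small p, their number and direction support nothing further. Cdkn1c, which encodes the cell cycle inhibitor p57 of mature podocytes, was at 37.5, 29.1 and 23.6 CPM in HET PBS and 69.9, 65.3, 50.8 and 54.8 CPM in KO antimiR-21. The groups did not overlap (log2 difference 0.85, SE 0.126, adjusted p = 0.0811), and KO PBS stood at 43.4 to 63.9 CPM. Inhbb, a subunit of activin B and inhibin B, was at 1.76, 0.823 and 0.844 CPM in HET PBS and at 5.30, 4.20, 6.28 and 2.35 CPM in KO antimiR-21. Again the groups were separate (1.70, SE 0.275, adjusted p = 0.144), with replicate 4 the lowest of the treated libraries. With Fcrls and Npy6r, Inhbb made up the 3 loci past the threshold in KO PBS against HET PBS (0.0209%). It was at 4.19 to 6.61 CPM in KO PBS (log2 difference 2.08, edgeR adjusted p = 0.0216).

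Several of these loci are genes of leukocytes. Ms4a7, a membrane protein of macrophages, stood at 1.76, 0.659 and 0.889 CPM in HET PBS and at 4.10, 4.53, 3.44 and 3.32 CPM in KO antimiR-21. KO PBS overlapped HET PBS and stood below KO antimiR-21, at 2.89, 1.40, 1.67 and 1.63 CPM. The log2 difference of Ms4a7 was 1.65 from HET PBS (SE 0.299, edgeR adjusted p = 0.251) and 0.88 from KO PBS (SE 0.259, adjusted p = 0.222). Ms4a6d, of the same membrane family, was at 0.356 to 1.03 CPM in HET PBS and 1.44 to 2.30 CPM in KO antimiR-21 (log2 difference 1.48, SE 0.300). Pik3r5, a regulatory subunit of the phosphoinositide kinase that acts downstream of chemokine receptors, was at 1.16 to 1.46 and 3.59 to 6.12 CPM (1.54, SE 0.302). Neither pair of ranges overlapped, and the adjusted p was 0.267 for Ms4a6d and 0.259 for Pik3r5.

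Dcn encodes decorin, a proteoglycan of connective tissue that binds collagen fibrils. Its levels were 58.6, 35.3 and 33.2 CPM in HET PBS and 128, 106, 98.8 and 69.5 CPM in KO antimiR-21. All treated libraries were above all heterozygous ones (log2 difference 1.02, SE 0.181, adjusted p = 0.259). KO PBS ranged from 45.2 to 91.0 CPM and overlapped both. Kirrel2, a relative of the slit diaphragm protein Neph1, was at 0.622 to 1.03 CPM in HET PBS, 0.925 to 1.40 CPM in KO PBS and 1.61 to 2.16 CPM in KO antimiR-21. Its treated libraries overlapped neither other group (1.18 from HET PBS, SE 0.230, adjusted p = 0.259). Rhbdl3, a rhomboid-like membrane protein gene, was at 2.67 to 3.86 CPM in HET PBS and 5.60 to 7.29 CPM in KO antimiR-21 (0.82, SE 0.168).

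The ranges of 2 further loci overlapped, and both followed Y-linked status within each group. Bhmt, which remethylates homocysteine with betaine, stood at 12.2, 2.96 and 3.38 CPM in HET PBS and at 33.997, 34.5, 28.9 and 7.39 CPM in KO antimiR-21. The highest heterozygous library and the 3 highest treated libraries are those without Y-linked reads. With status in the fit the log2 difference was 1.37 (SE 0.246, edgeR adjusted p = 0.251). Glt1d1, a glycosyltransferase-like gene, ran the other way with status, at 10.5, 25.6 and 19.4 CPM in HET PBS and 18.7, 18.7, 14.5 and 36.4 CPM in KO antimiR-21. Its difference was 0.77 from HET PBS (SE 0.147, adjusted p = 0.259) and 0.74 from KO PBS (adjusted p = 0.111).

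**Figure D2:**
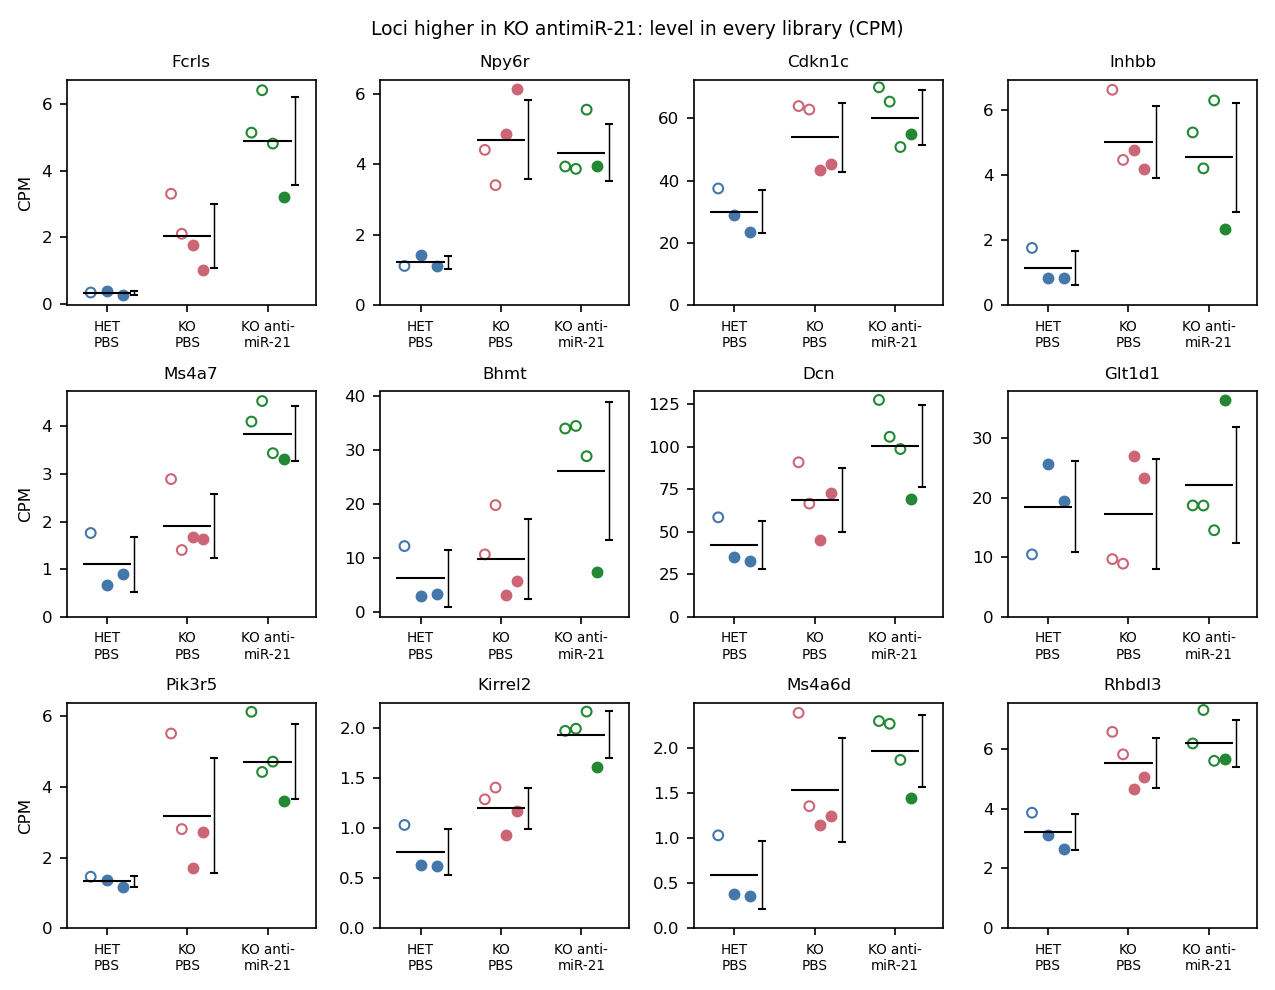
Levels in CPM of the 12 higher loci with the smallest p, with a point for each library, filled where it holds Y-linked reads; lines are group means and bars ± 1 SD (n = 3, 4 and 4). Fcrls and Npy6r passed the threshold, and 10 of the 12 show no overlap between KO antimiR-21 and HET PBS.

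Among loci with an unadjusted p under 0.01 and a mean of at least 1 CPM, the 4 largest higher differences were those of Lcn2, Fcrls, the joint locus Serpina3m/Serpina3n and Egr2. The chemokine genes Ccl7 and Cxcl5, described with their list, lie under that level. Lcn2, lipocalin-2 secreted by injured tubules, was at 5.24, 3.95 and 2.27 CPM in HET PBS and at 52.7, 24.3, 56.6 and 52.7 CPM in KO antimiR-21. The treated libraries were all above the heterozygous ones, with replicate 2 the lowest (log2 difference 3.59, SE 0.710, edgeR adjusted p = 0.284). KO PBS had a wider range, 21.1 to 106 CPM. Serpina3m/Serpina3n, of acute phase protease inhibitors, stood at 0.400 to 1.37 CPM in HET PBS and 4.75 to 13.6 CPM in KO antimiR-21 (2.83, SE 0.647, adjusted p = 0.310). The counts under both names were identical, and the 2 genes cannot be told apart. Egr2, a transcription factor of the immediate early response, was at 0.178 to 0.343 CPM and 0.856 to 2.30 CPM (2.47, SE 0.538, adjusted p = 0.269), again without overlap.

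Gene lists were described by the number of tested members on each side and their median, beside a median of -0.01 over all loci. Some genes, such as Lcn2 and Cfd, are in more than 1 list, so the lists are not independent of one another. In bulk kidney, more cells of a type and more RNA per cell cannot be told apart. Of 38 macrophage and monocyte genes, 34 had positive differences (47.7% of all loci did), 21 were higher and 0 lower at an unadjusted p under 0.05 (3.76% and 2.56% of all loci), and 1, Fcrls, passed the adjusted threshold. In 21 members the ranges did not overlap and the treated libraries were higher (3.88% of all loci). Their median log2 difference was 0.57, and it was 0.41 in libraries without and 0.96 in libraries with Y-linked reads. Against KO PBS, 4 members were higher and 0 lower at an unadjusted p under 0.05 (6.23% and 4.85% of all loci). The mean level of the list over its members, in log2 CPM relative to the HET PBS mean, was 0.38, -0.16 and -0.22 in HET PBS and 0.78, 0.93, 0.78 and 0.77 in KO antimiR-21. The treated libraries lay above all heterozygous ones, and the highest heterozygous value was that of replicate 1, which lacks Y-linked reads.

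Within the list, Emr1, which encodes the macrophage antigen F4/80, was at 12.5, 6.34 and 5.60 CPM in HET PBS and 22.4, 22.05, 17.0 and 18.4 CPM in KO antimiR-21. KO PBS stood between them, at 7.84 to 15.1 CPM, and overlapped HET PBS but not KO antimiR-21. Emr1 had a log2 difference of 1.16 from HET PBS (SE 0.236) and 0.77 from KO PBS. Itgam, the integrin CD11b of myeloid cells, was at 2.64 to 3.86 CPM in HET PBS and 8.31 to 8.84 CPM in KO antimiR-21 (log2 difference 1.24). The lysosomal protease gene Ctss (1.01) and Lyz2, lysozyme of myeloid cells (1.49), also had ranges that did not overlap. None of these 4 members passed the adjusted threshold.

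PU.1 is the transcription factor that specifies macrophages, and promoters of the list were searched for its core site GAGGAAGT on both strands, from 250 bases before to 50 after each RefSeq start. Of 36 promoters that could be matched, 3 held it (8.33%), against 1052 of 32851 promoters of the same length (3.20%). Among the promoters of higher loci named by the rule it was in 0 of 14. The windows with a match are shown because their genes belong to the list with the most higher members. Each is written on its gene's strand, 5′ to 3′, and the capitals mark the reverse complement of the site. They lie at chr3:95526774-95526801 (plus strand), chr3:106790126-106790153 (minus) and chr4:136893092-136893119 (minus) of GRCm38.p6.
Ctss: atgaaagttcACTTCCTCattgtggatg
Cd53: actcagtctcACTTCCTCactcttctcg
C1qc: gacggcagacACTTCCTCattttggcac

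Cd53, a tetraspanin of leukocytes, stood at 4.28 to 5.92 CPM in HET PBS and 6.09 to 9.39 CPM in KO antimiR-21 (log2 difference 0.52). A match of letters is a description and says nothing of whether PU.1 binds there.

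Of 20 complement genes tested, 10 were higher and 0 lower at an unadjusted p under 0.05 (3.76% and 2.56% of all loci). Their median was 0.57 (0.34 in libraries without and 0.85 in libraries with Y-linked reads). The macrophage and monocyte list had exactly the same median, so the 2 lists are not separate results. C3ar1, the receptor of the C3a fragment on myeloid cells, stood at 3.61, 2.11 and 1.33 CPM in HET PBS and at 6.23, 6.41, 5.60 and 7.55 CPM in KO antimiR-21. The groups did not overlap, and KO PBS, at 2.16 to 4.68 CPM, stood below the treated libraries (log2 difference 1.35 from HET PBS, SE 0.288, edgeR adjusted p = 0.269). C7, a component of the membrane attack complex, was at 6.98 to 9.61 and 15.1 to 20.3 CPM (0.99, SE 0.269). Cfd, complement factor D, is also made by fat cells and was at 14.6 and 4.48 CPM in KO antimiR-21 replicates 1 and 2 but at 0.147 and 0.107 CPM in replicates 3 and 4, next to 0.0444 to 0.343 CPM in HET PBS. The high replicates are those with Plin1 reads.

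Of 30 chemokine and cytokine genes, 11 were higher and 1 lower at an unadjusted p under 0.05 (3.76% and 2.56% of all loci). Their median was 0.50. Ccl7, a monocyte chemoattractant, was at 0.0444 to 0.129 CPM in HET PBS and at 2.19, 0.332, 0.589 and 0.535 CPM in KO antimiR-21, with replicate 1 the highest. Cxcl5, a neutrophil chemoattractant, was at 0, 0.0549 and 0.0889 CPM in HET PBS and at 0.109 to 0.718 CPM in KO antimiR-21. These heterozygous levels rest on few reads, so no fold is given. Ccl28, a mucosal chemokine, was the lower member, at 19.1, 122 and 84.5 CPM in HET PBS and 7.54, 8.01, 10.6 and 66.5 CPM in KO antimiR-21. The low libraries of both groups are those without Y-linked reads (log2 difference -1.03 with status in the fit).

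Tubular injury genes were higher in 14 and lower in 0 of 37 tested at an unadjusted p under 0.05 (3.76% and 2.56% of all loci), with a median of 0.38. In 16 of them the treated range lay above the heterozygous one without overlap (3.88% of all loci). Socs3, a feedback inhibitor of STAT3 signalling, was at 3.09, 2.25 and 1.47 CPM in HET PBS and 9.95, 6.30, 11.1 and 6.64 CPM in KO antimiR-21. All treated libraries stood above the heterozygous ones (log2 difference 1.64, SE 0.342, edgeR adjusted p = 0.269). Osmr, the oncostatin M receptor, was at 5.95 to 13.0 and 14.5 to 31.0 CPM (1.11), and Cd44, a hyaluronan receptor of regenerating tubules, at 2.58 to 3.35 and 6.77 to 8.51 CPM (1.17). Vcam1, an adhesion molecule of injured proximal tubule and endothelium, stood at 10.2 to 23.9 CPM in HET PBS, 30.1 to 34.3 CPM in KO antimiR-21 and 25.6 to 85.4 CPM in KO PBS. The list's level was -0.09 to 0.15 in HET PBS, 0.56 to 0.82 in KO antimiR-21 and 0.62 to 1.42 in KO PBS. Directly against KO PBS, 0 members were higher and 8 lower at an unadjusted p under 0.05 (6.23% and 4.85% of all loci).

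Of 44 matrix and fibrosis genes tested, 15 were higher and 0 lower at an unadjusted p under 0.05 (3.76% and 2.56% of all loci). Their median was 0.38 (0.23 in libraries without and 0.40 in libraries with Y-linked reads). Timp1, an inhibitor of matrix metalloproteinases, was at 0.901, 0.274 and 0.667 CPM in HET PBS and at 4.26, 2.76, 3.83 and 4.07 CPM in KO antimiR-21. The groups were separate (log2 difference 2.42, SE 0.599), and KO PBS was at 3.26 to 15.3 CPM with replicate 1 the highest. Mgp, matrix Gla protein, an inhibitor of calcification, was at 33.8 to 60.5 and 102 to 116 CPM (1.23, SE 0.252, edgeR adjusted p = 0.281). Ctgf, a matricellular protein induced by TGF-beta, was at 40.9 to 94.2 CPM in HET PBS and 124 to 201 CPM in KO antimiR-21 (1.19), and Lox, the collagen cross-linking enzyme, at 5.69 to 10.8 and 13.9 to 30.7 CPM (1.33). Lum, lumican, was at 1.81 to 2.75, 3.32 to 5.84 and 4.14 to 8.72 CPM in HET PBS, KO antimiR-21 and KO PBS. The treated range of Lum lay above that of HET PBS and overlapped that of KO PBS. Against KO PBS 2 members of the list were higher and 12 lower at an unadjusted p under 0.05 (6.23% and 4.85% of all loci). List levels overlapped between groups, from -0.32 to 0.44 in HET PBS and 0.29 to 0.97 in KO antimiR-21, where replicate 4 was the lowest.

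At an unadjusted p under 0.05, which sets each count of members here, 3.76% of all loci were higher and 2.56% lower. Fibroblast, pericyte and smooth muscle genes numbered 3 higher and 0 lower of 22 tested. The extracellular matrix gene Dpt, dermatopontin, was at 7.08 to 8.33 CPM in HET PBS and 11.8 to 16.5 CPM in KO antimiR-21 (log2 difference 0.81, SE 0.180). Vim, the intermediate filament of mesenchymal cells, was at 41.7 to 64.0 and 77.7 to 94.2 CPM (0.65, SE 0.172). Neither pair of ranges overlapped. Of 29 immediate early genes 8 were higher and 0 lower, with Egr1 at 4.50 to 7.21 and 9.10 to 20.3 CPM (0.95), and of 20 NF-kB response genes 4 were higher and 0 lower, with the A20 gene Tnfaip3 at 9.51 to 11.2 and 13.4 to 16.4 CPM (0.42). Interferon response genes counted 3 higher and 0 lower of 36, with Ifi27l2a at 2.04 to 3.18 and 4.10 to 6.14 CPM (0.79).

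**Figure D3:**
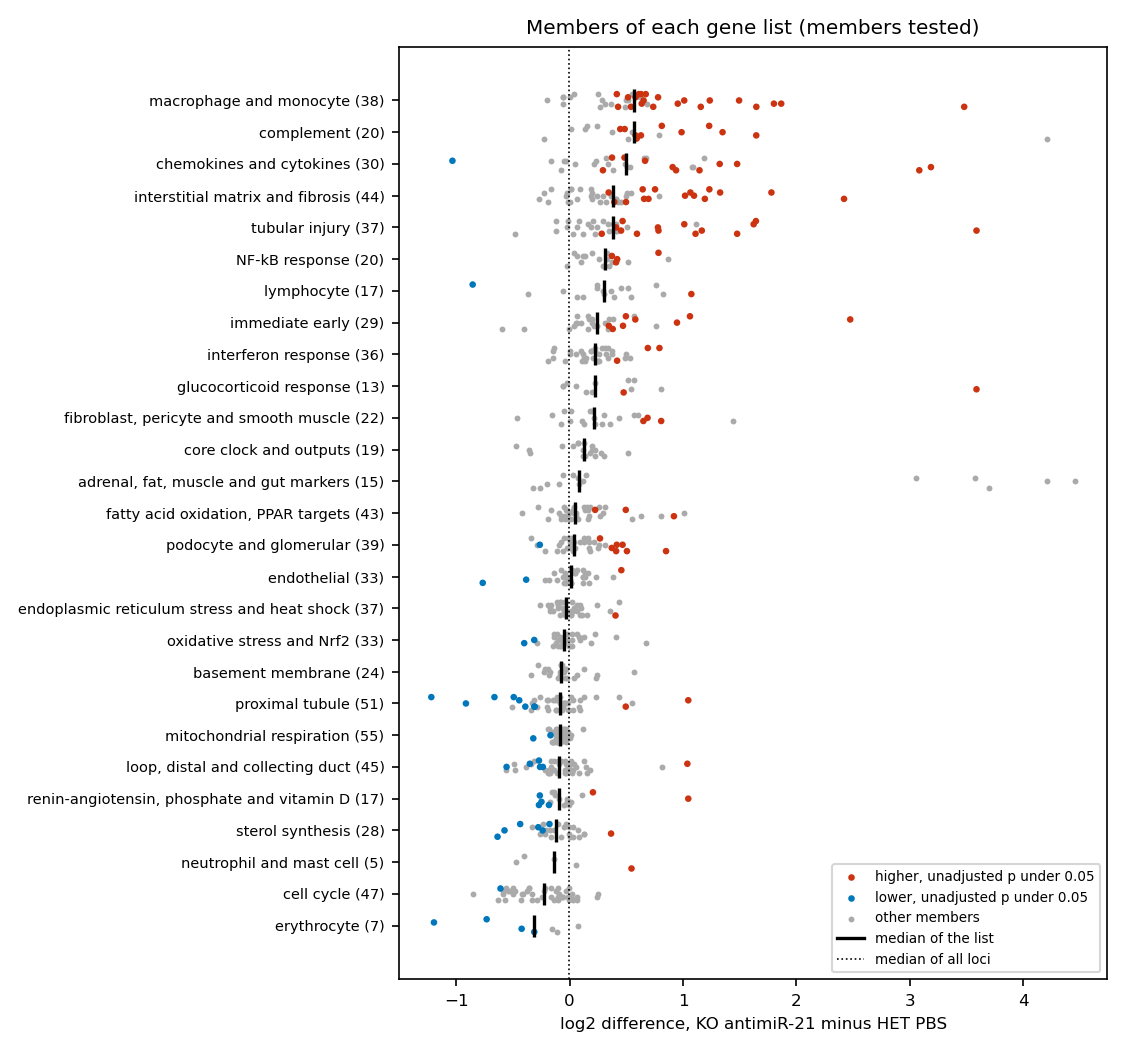
Each point is a tested member of a gene list, placed by its log2 difference of KO antimiR-21 minus HET PBS; red and blue points have an unadjusted p under 0.05, black ticks are list medians and the dotted line is the median of all loci. Macrophage, complement, chemokine, matrix and tubular injury lists have medians from 0.38 to 0.57, and the cell cycle and erythrocyte lists stand at -0.22 and -0.31. Some genes are in more than 1 list.

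Glomerular cell genes showed a mixed picture, with 7 higher and 1 lower of 39 podocyte and glomerular genes at an unadjusted p under 0.05. The shares of all loci were 3.76% and 2.56%, and the median of the list was 0.04. Nes, which encodes nestin of podocytes, was at 33.0 to 42.7 CPM in HET PBS and 46.7 to 62.2 CPM in KO antimiR-21 (log2 difference 0.47, SE 0.122), and Ptpro, a receptor phosphatase of podocyte foot processes, at 29.8 to 34.8 and 35.2 to 56.7 CPM (0.41). Enpep, aminopeptidase A, was the lower member, at 369, 458 and 506 CPM in HET PBS and 303, 335, 325 and 390 CPM in KO antimiR-21 (-0.26, SE 0.0821, edgeR adjusted p = 0.510).

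The targeted gene shares its reads with its neighbour in these counts, so the joint locus Col4a3/Col4a4 does not check the genotype labels. Its levels were 870, 1053 and 1271 CPM in HET PBS and 515, 569, 809 and 665 CPM in KO antimiR-21. The treated libraries were below all heterozygous ones (log2 difference -0.57 with Y-linked status in the fit, SE 0.167, adjusted p = 0.444). Col4a5, whose product joins the same network, was at 190 to 204 and 162 to 213 CPM (-0.07, SE 0.117). Of 100 placed loci within 10 Mb of Col4a3, 2 had an unadjusted p under 0.01 (2%), against 218 of 12094 placed loci (1.80%).

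Among loci lower in KO antimiR-21 none passed the threshold (adjusted p from 0.267 for Apln to 0.318 for Trabd2b), and loci with the smallest p are given as values. Apln encodes apelin, a peptide of endothelial tip cells that acts through the receptor Aplnr. It was at 23.9, 17.4 and 18.4 CPM in HET PBS and 14.7, 11.4, 16.9 and 10.3 CPM in KO antimiR-21. The ranges were separate by a small gap (log2 difference -0.77, SE 0.156), and KO PBS, at 14.6 to 25.9 CPM, covered the heterozygous range (difference from KO PBS -0.66, edgeR adjusted p = 0.139). Aplnr itself was at 27.0 to 40.6 and 23.6 to 29.6 CPM (-0.38, SE 0.122). Of the 33 endothelial genes tested, Apln and Aplnr were the 2 lower at an unadjusted p under 0.05, beside 1 higher. Over all loci 2.56% were lower and 3.76% higher.

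Zfp239, a zinc finger gene, was at 13.99, 13.3 and 19.2 CPM in HET PBS and 5.03, 5.97, 7.26 and 11.3 CPM in KO antimiR-21. KO PBS stood with HET PBS, at 11.2 to 19.7 CPM, its lowest library just under the highest treated one. The difference was -0.87 from HET PBS (SE 0.187, edgeR adjusted p = 0.269) and -0.98 from KO PBS (adjusted p = 0.111). Slc35b4, a nucleotide sugar transporter of the Golgi and endoplasmic reticulum, was at 233 to 260 CPM in HET PBS, 204 to 248 CPM in KO PBS and 173 to 203 CPM in KO antimiR-21. Treated libraries lay below all others, by a log2 difference of -0.36 from HET PBS (SE 0.0819) and -0.29 from KO PBS. Atp12a, a non-gastric proton potassium pump of the collecting duct, was at 7.04, 2.80 and 6.84 CPM in HET PBS and 1.53 to 2.503 CPM in KO antimiR-21 (-1.64, SE 0.350). Its HET PBS replicate 2 stood close to the treated range.

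Several of the lower loci followed Y-linked status more than group. Slc22a30, an organic anion transporter gene of the proximal tubule, was at 22.7, 486 and 500 CPM in HET PBS and at 6.83, 9.72, 11.2 and 333 CPM in KO antimiR-21. Every library without Y-linked reads, KO PBS included, was at 22.7 CPM or less, and every library with them at 328 CPM or more. With status in the fit it differed by -0.91 on the log2 scale (SE 0.202, edgeR adjusted p = 0.283). Col6a6, a collagen VI chain, was at 1.80, 101 and 124 CPM in HET PBS and 1.09, 0.995, 0.785 and 44.1 CPM in KO antimiR-21, with the same split (-1.18, SE 0.284). B4galt5, a galactosyltransferase of glycosphingolipid synthesis, was at 65.4, 188 and 195 CPM and at 46.0, 43.4, 52.1 and 89.5 CPM. B4galt5 differed from HET PBS by -0.75 with status in the fit (SE 0.167). The difference was -0.47 within libraries without Y-linked reads and -1.10 within those with them. Tprg and Arsi, a sulfatase gene, were high in HET PBS replicate 1 (13.6 and 10.04 CPM), at 0.769 to 2.67 CPM in the other heterozygous libraries and at 0.428 to 4.42 CPM in KO antimiR-21. KO PBS replicates 1 and 2, without Y-linked reads, had 9.82 and 10.7 CPM of Tprg and 9.46 and 9.82 CPM of Arsi. KO PBS replicates 3 and 4 were at 1.16 to 2.48 CPM. The direct difference from KO PBS was -1.97 for Tprg and -2.11 for Arsi (edgeR adjusted p = 0.129 and 0.156).

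Among the other lower loci, Sec23b, a coat protein of vesicles leaving the endoplasmic reticulum, was at 178 to 283 and 144 to 193 CPM (log2 difference -0.38). Trabd2b, a metalloprotease that inactivates Wnt proteins, was at 79.9 to 144 and 59.2 to 95.2 CPM (-0.38). The joint Enpp6/Stox2 locus was at 150 to 205 and 112 to 148 CPM (-0.44). Sec23b, Trabd2b and Enpp6/Stox2 were also higher in libraries with Y-linked reads. Their log2 differences for status were 0.48, 0.66 and 0.28 (edgeR adjusted p = 0.000227, 0.000108 and 0.0217). Ranges were separate for Enpp6/Stox2 and overlapped for Sec23b and Trabd2b. Mmp13, a collagenase, was among the 4 lower loci with the largest differences, at 5.32, 3.73 and 2.44 CPM in HET PBS and 0.328, 0.774, 1.57 and 2.19 CPM in KO antimiR-21 (-1.67, SE 0.488, edgeR adjusted p = 0.461). KO PBS, at 1.76 to 3.86 CPM, overlapped both.

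**Figure D4:**
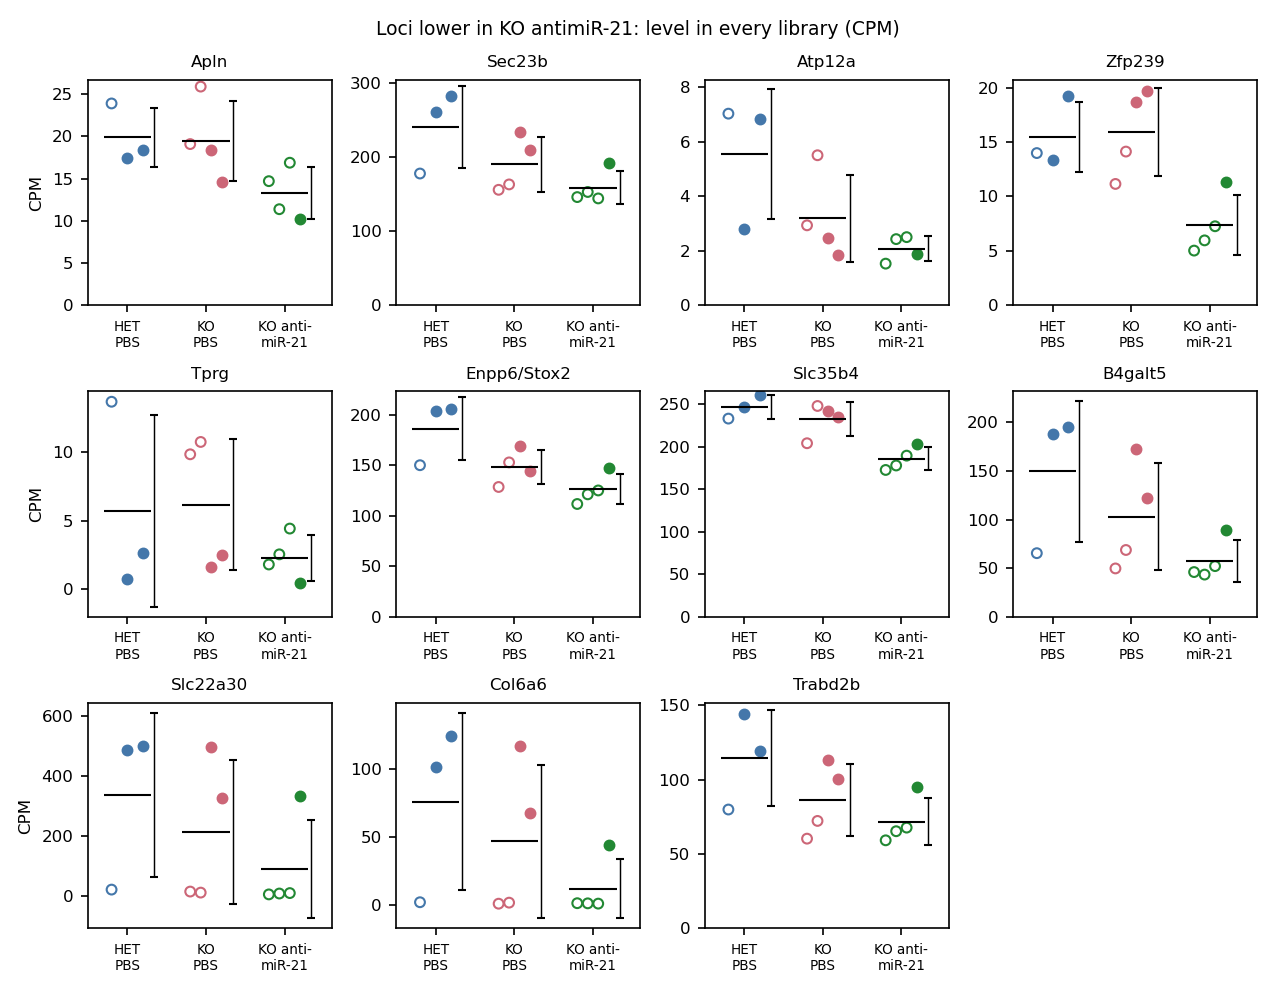
Levels in CPM of 11 lower loci among those with the smallest p, none past the threshold, with a point for each library, filled where it holds Y-linked reads; lines are group means and bars ± 1 SD (n = 3, 4 and 4). Slc22a30 and Col6a6 separate by Y-linked status within every group, while Slc35b4 is lower in all 4 treated libraries than in any other.

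Of 51 proximal tubule genes tested, 8 were lower and 2 higher at an unadjusted p under 0.05 (2.56% and 3.76% of all loci). They had 39 negative differences (52.3% of all loci) and a median of -0.08. The joint BC017158/Slc5a2 locus, which includes the glucose transporter SGLT2, was at 897 to 1021 CPM in HET PBS and 712 to 886 CPM in KO antimiR-21 (log2 difference -0.31, SE 0.104), without overlap. Slco1a6, an organic anion transporter, was at 264 to 302 and 136 to 232 CPM (-0.66). Cyp27b1, which makes active vitamin D, was a higher member, at 15.02, 25.5 and 8.98 CPM in HET PBS and 21.9, 33.8, 15.8 and 53.5 CPM in KO antimiR-21. The groups overlapped (1.05 from HET PBS and 1.66 from KO PBS, where it was at 9.69 to 10.7 CPM). Vdr, the vitamin D receptor, was at 351 to 386 and 283 to 317 CPM (-0.25, SE 0.0835), and Kl, klotho, the coreceptor of FGF23, at 778 to 1075 and 681 to 751 CPM (-0.27, SE 0.115). Both had separate ranges.

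Of 28 sterol synthesis genes tested, 6 were lower and 1 higher at an unadjusted p under 0.05 (2.56% and 3.76% of all loci). Their median was -0.12. Nsdhl, a sterol dehydrogenase, was at 83.9, 95.2 and 110 CPM in HET PBS and 58.3, 61.0, 72.1 and 76.7 CPM in KO antimiR-21. Its groups were separate (log2 difference -0.44, SE 0.121, edgeR adjusted p = 0.381). Insig1, which retains the sterol sensor in the endoplasmic reticulum, was the higher member, at 40.7 to 50.2 CPM in HET PBS, 55.9 to 62.5 CPM in KO antimiR-21 and 29.4 to 43.6 CPM in KO PBS. The difference of Insig1 was 0.37 from HET PBS and 0.64 from KO PBS.

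Cell cycle genes had 40 negative differences of 47, a median of -0.22, and 0 higher and 1 lower at an unadjusted p under 0.05. The lower member was Ect2, a regulator of cytokinesis, at 19.0, 23.7 and 29.2 CPM in HET PBS and 10.8, 10.2, 15.6 and 19.4 CPM in KO antimiR-21 (log2 difference -0.61, SE 0.233). Against KO PBS 26 members were lower and 0 higher (4.85% and 6.23% of all loci). List levels were -0.28, -0.26 and 0.54 in HET PBS and -0.82, -0.63, -0.29 and 0.11 in KO antimiR-21. These ranges overlap, and in both groups the highest value is in a library with Y-linked reads. Of 19 clock genes 0 were higher and 0 lower than in HET PBS at an unadjusted p under 0.05 (3.76% and 2.56% of all loci), with a median of 0.13. Compared with KO PBS, 11 were higher and 1 lower (6.23% and 4.85% of all loci).

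The other lists are given by their counts at an unadjusted p under 0.05 and their medians. Over all loci 3.76% were higher and 2.56% lower, and counts of 1 or 2 members lie near these shares in the larger lists. Mitochondrial respiration genes had 52 negative differences of 55 (52.3% of all loci) and a median of -0.08, with 0 higher and 2 lower. The median was -0.09 in libraries without Y-linked reads but 0.03 in libraries with them. Cycs, cytochrome c, was at 90.8, 175 and 190 CPM in HET PBS and 76.4, 72.2, 81.3 and 153 CPM in KO antimiR-21 (log2 difference -0.32), with the higher libraries of both groups those with Y-linked reads. Fatty acid oxidation and PPAR target genes numbered 3 higher and 0 lower of 43 (median 0.05), with Cyp4a10, a fatty acid hydroxylase, at 191 to 516 and 327 to 777 CPM (0.50). Basement membrane genes had 0 of 24 at an unadjusted p under 0.05 in either direction. Loop, distal and collecting duct genes had 1 higher and 5 lower of 45 (median -0.09), and renin-angiotensin, phosphate and vitamin D genes 2 higher and 4 lower of 17 (median -0.10). Oxidative stress and Nrf2 genes had 0 higher and 2 lower of 33, stress genes of the endoplasmic reticulum and heat shock 1 and 0 of 37, and glucocorticoid response genes 2 and 0 of 13 (median 0.22), Lcn2 being 1 of these 2. Of 7 erythrocyte loci 4 were lower and 0 higher, with a median of -0.31, and in these 4 the ranges did not overlap (2.1% of all loci). The alpha globin gene Hba-a1 was at 1.72, 1.87 and 1.24 CPM in HET PBS and 0.929, 0.332, 0.785 and 0.749 CPM in KO antimiR-21 (-1.20, SE 0.397, edgeR adjusted p = 0.574). Its groups did not overlap, and KO PBS was at 0.230 to 0.617 CPM.

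Among 17 lymphocyte genes 1 was higher and 1 lower, close to the 3.76% and 2.56% of all loci. Their median was 0.30, but -0.16 in libraries without and 0.60 in libraries with Y-linked reads. Cd52, a leukocyte surface antigen, was at 1.98 to 2.96 CPM in HET PBS and 4.96 to 6.41 CPM in KO antimiR-21 (log2 difference 1.07, SE 0.231, edgeR adjusted p = 0.269). The T cell coreceptor gene Cd8a was at 1.48 to 2.79 and 1.09 to 1.77 CPM (-0.85, SE 0.278). Only 5 of 19 neutrophil and mast cell genes were tested, and 3 of these had negative differences (median -0.14). At an unadjusted p under 0.05, 1 was higher and 0 lower. The higher member, Csf3r, was at 1.70 to 2.92 and 2.78 to 4.09 CPM (0.54), with overlapping ranges. Markers of adrenal, fat, muscle and gut had 0 of 15 at an unadjusted p under 0.05 in either direction. The part of fat tissue in the other differences was not tested. Without the 3 libraries with fat cell markers, a choice made after seeing the data, Fcrls stayed past the threshold (adjusted p = 0.0232).

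**Figure D5:**
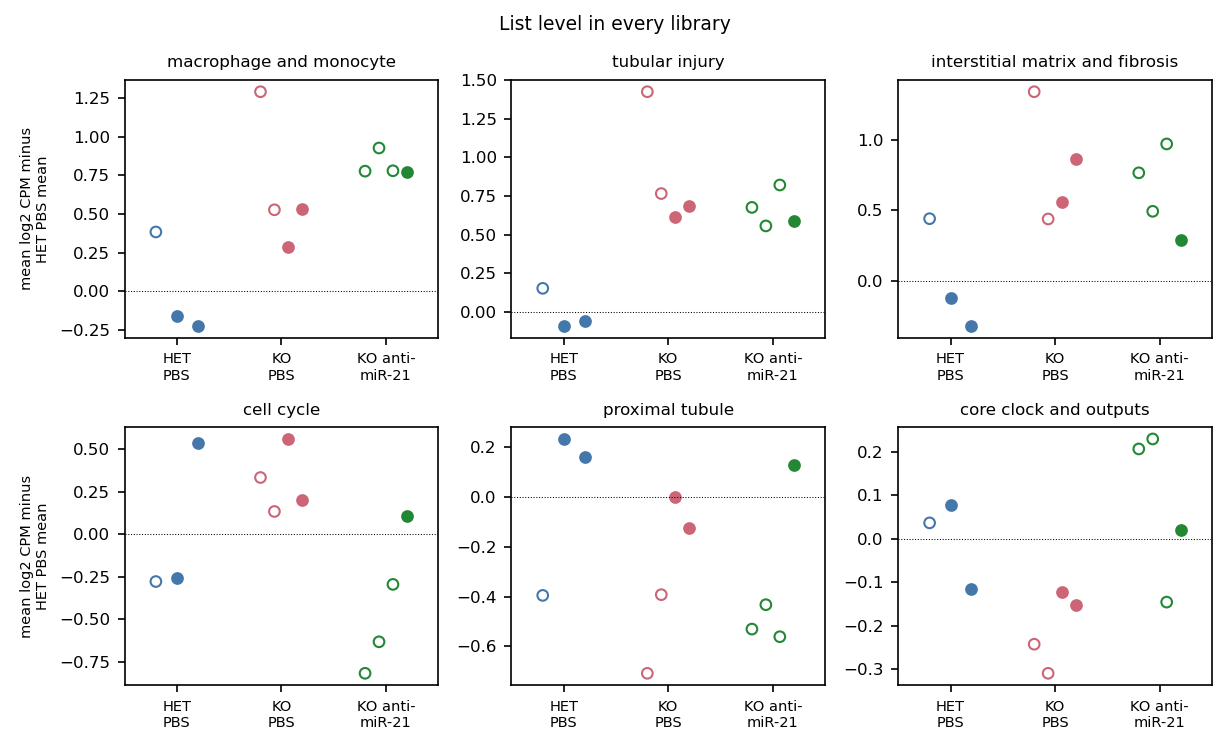
Mean level of 6 gene lists in each library, in log2 CPM relative to the HET PBS mean, with points filled where the library holds Y-linked reads. Macrophage and tubular injury levels of KO antimiR-21 lie above all HET PBS libraries, matrix levels overlap, and proximal tubule levels are highest in libraries with Y-linked reads.

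The difference between KO antimiR-21 and HET PBS was itself compared between libraries with and without Y-linked reads. No locus passed (0 of 14380, 0%, by edgeR), and 520 had an unadjusted p under 0.05 (3.62%). That fit rests on HET PBS replicate 1 and KO antimiR-21 replicate 4, the lone libraries of their kind, whose spread was taken to be that of the others. In direct comparison with KO PBS, 0 loci passed (0%), and 896 were higher (6.23%) and 697 lower (4.85%) in KO antimiR-21 at an unadjusted p under 0.05.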

How the data were processed

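Kidney RNA was sequenced from TruSeq RNA v2 libraries, a kit that does not mark strand. The authors deposited 1 file per library of expected counts per gene name, not normalized, and a series matrix of log2 values, which served as an alternative. FastQC, STAR, SAMtools, HTSeq 0.5.4p5, limma and build mm10 are named per the submitters' processing notes, without roles; the sources used here do not give the annotation or counting settings. Of values above 0, 47.4% were not whole. Files had 24914 rows; 1513 pairs of names with identical counts in all 11 libraries (total of at least 50) were joined, and their reads cannot be assigned to either gene. Without strand, overlapping and antisense genes cannot be told apart. Unnamed loci (1.33% of counts) stayed in the fit.

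Counts were rounded and fitted with edgeR 4.0.16 in R 4.3.3 (TMM, filterByExpr, robust quasi-likelihood) over 11 libraries with 3 groups and Y-linked status (4 Y-linked genes summing to above 5 CPM), two-sided, with Benjamini-Hochberg adjustment at 0.05. This left 14380 loci, 1328 of them joint. All groups share 1 estimate of the spread (biological coefficient of variation 0.140). Per-library CPM uses the joined totals with TMM factors. DESeq2 1.42.0, limma 3.58.1, other filters and scalings, left-out libraries and a replicate block were alternatives. The fitting code was tested on simulated data. Positions come from GENCODE vM21 and sequences from RefSeq (GRCm38); 84.1% of loci were placed.

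The rule for named genes took 12 loci per direction by p with a mean of at least 1 CPM, the 4 largest differences per direction at an unadjusted p under 0.01, 2 members of each of 28 lists and the type IV collagen genes; some loci taken by this rule are not reported here, and other list members were picked for their role after their values were seen. Members and lists were chosen with earlier results of these data known. Of 975 list members, 880 were in the files. Deviations of same-numbered HET PBS and KO antimiR-21 libraries from their group means correlated at 0.479, -0.300 and -0.0899, with Y-linked status left in. With group and status both removed the correlations were -0.0244, 0.0136 and 0.160, so replicate numbers were not used as pairs.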

Additional observations from a re-analysis of the deposited data

Results flagged for a closer look

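Within the 4 KO antimiR-21 libraries, 1 library stood far from the other 3 (Dixon's test) in 15 of 106 groups examined; chance flags about 1 in 20. Replicate 4, the treated library with Y-linked reads, was the distant one for 10 of them. It had 40.1 CPM of Uty and 89.7 CPM of Ddx3y, both Y-linked, and a Y-linked list level of 2.63. Slc22a30 (333.3 CPM), Col6a6 (44.1 CPM), Gclc of glutathione synthesis (287.3 CPM), Cycs (153.0 CPM) and the Coq10a/Cs locus of citrate synthase (455.4 CPM) were high there. Birc3, an apoptosis inhibitor, was low at 18.8 CPM, as was the podocyte list level at -0.10. Replicate 3 was high for Npy6r (5.55 CPM), replicate 2 low for Lcn2 (24.3 CPM) and high for the macrophage list level (0.93), and replicate 1 high for Ccl7 (2.19 CPM) and low for Tinag, a basement membrane gene (157.7 CPM).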

How the results depend on the processing

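Of 1939 values of 78 named loci under 25 alternatives, 1871 kept their direction and side of the threshold, 43 newly passed, 19 no longer passed and 6 changed sign. Sign changes were Mpo (0.0002661 in the 7 libraries without the Y-linked term), Uty (0.0664) and Col4a5 (0.0673) without KO antimiR-21 replicate 4 (leaving out single libraries gave -0.421 to 0.0664 for Uty and -0.137 to 0.0673 for Col4a5), Col4a5 (0.0195) among libraries without Y-linked reads, and Plin1 (-4.01) and Cfd (-0.95) among those with them; the cause was not tested. Called higher loci (2 in the main fit) numbered 1 without the Y-linked term, 5 in the 7 libraries of the pair of groups with that term and 1 without it, 65 by DESeq2, 1 by limma-voom, 6 with a replicate block, 0 within libraries without and 0 within libraries with Y-linked reads, and 1 without the 3 libraries with fat cell markers. Called lower loci (0) numbered 24 by DESeq2 and 2 with the replicate block. Leaving out single libraries gave 0 to 12 called higher loci, 420 to 678 higher and 239 to 530 lower loci at an unadjusted p under 0.05. Those lower counts (368) became 174 without and 575 with Y-linked reads and 185 without the fat-marker libraries, and the higher count (541) became 259 without Y-linked reads. The heterozygous levels of Ccl7 and Cxcl5 rest on few reads, which limits what can be said of their folds.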
